A study of Arabidopsis thaliana with 6 samples.

Results

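The UDP-glycosyltransferases (UGTs) are the enzymes that move a sugar from a UDP-sugar onto small acceptor molecules such as hormones, flavonoids, monolignols, sterols and defence compounds. Glycosylation makes these compounds more soluble and less reactive and often fits them for storage in the vacuole, and for several plant hormones the conjugate is an inactive form. Most plant UGTs share a conserved sugar-binding motif near the C terminus, while the more variable N-terminal part recognises the acceptor. The name gives the position in the family: members with the same number, such as UGT71, form one family group, and a letter then marks the subgroup.

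UGT genes were taken as the genes with a UGT number for a symbol in the platform annotation, from probe sets that the annotation gives to 1 gene only. The rule found 47 UGT genes, each with a single such probe set, among 13356 genes that were named in this way. They fall into 11 family groups, UGT71 to UGT88, of which UGT71 with 9 genes and UGT76 with 8 genes hold the most. RefSeq gives a UGT symbol to 58 genes of the genome, so 11 genes of the family by symbol had no probe set under this rule.

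The arrays were Affymetrix ATH1 GeneChips, 3 with RNA of frb1-1 seedlings and 3 with RNA of wild-type (FRB1) seedlings, one array per biological replicate. The frb1-1 plants carry a T-DNA insertion upstream of the coding region of At5g01100, called FRIABLE1, and were found in a screen for defective cell adhesion. Both genotypes are in the Col-0 background, and whole seedlings were taken after 10 days of growth on 0.5 MS medium under constant light at 21 °C, following 4 days in the dark and cold. A single mutant allele was hybridised, and no probe set of the annotation names FRB1, so the genotype labels were not checked by the signal of the mutated gene. The paper proposes that frb1-1 is a partial loss of function, since RT-PCR with more cycles still gave a faint FRB1 band.

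Signals are MAS 5.0 values on a linear scale, brought to an average of 500 on each array by the authors. They compare one probe set between arrays and do not rank different genes. The median signal of an array was 176 to 183 in frb1-1 and 154 to 199 in wild type, and log2 signals of arrays correlated at 0.918 to 0.972 within genotypes and at 0.920 to 0.962 between them. Of 12 seed genes listed as possible remnants of seed tissue the annotation names 3, the vicilin-like PAP85, the oleosin OLEO4 and the LEA gene M17, and PAP85 and M17 were called higher in frb1-1. Their summed signal was 2555 to 2933 in frb1-1 and 518 to 824 in wild type. Most of it came from M17, with means of 2052 in frb1-1 and 389 in wild type. OLEO4 had means of 321 and 169 and was not called (limma adjusted p = 0.523). The only leaf gene of 6 that could be read, RCA, which encodes Rubisco activase, gave 16255 to 23642 in frb1-1 and 22730.0 to 31295 in wild type, and none of 6 root genes was named. RCA was not called and its arrays overlapped (log2 fold change -0.41, interval -0.84 to 0.02, limma adjusted p = 0.889). Whether the seed and leaf signals had a part in the UGT values was not tested. In whole seedlings, fewer cells of a type and less RNA per cell cannot be told apart.

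No UGT gene was called different between frb1-1 and wild-type seedlings. Of the 47 genes, 31 passed the filter on dim probe sets (log2 signals that averaged 6 or more over the arrays, which is a signal of 64) and 16 did not. None of the 31 passed the threshold of an adjusted p of 0.05 in limma, with Benjamini-Hochberg adjustment over all 15218 probe sets tested. Over the whole array 0.368% passed (0.276% higher and 0.092% lower in frb1-1), and at that share 31 genes with no call are not set apart from the rest. The lowest adjusted p among the UGT genes in this limma fit was 0.676. At an unadjusted p under 0.05 there were 2 UGT genes, UGT71B1 and UGT87A2, both with a higher signal in frb1-1; this is 6.45% of the 31, beside 5.96% of all probe sets (3.86% higher and 2.1% lower in frb1-1). No UGT gene that passed the filter reached a 2-fold ratio of mean signals, which 1.66% of all probe sets did (1.18% higher and 0.48% lower in frb1-1).

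The log2 fold changes, frb1-1 minus wild type, had a median of 0.05 over the 31 genes, with quartiles of -0.21 and 0.29. Over all probe sets tested the median was 0.0089 and the quartiles were -0.18 and 0.21. The median size of the change without its sign was 0.24 for the UGT genes and 0.19 for all probe sets. The sign was positive for 19 UGT genes, or 61.3%, and negative for 12, beside 51.3% positive over all probe sets. With 3 arrays per genotype the limits of the 95% confidence intervals lay 0.44 to 1.89 from the fold change on the log2 scale, with a median of 0.60. For 18 of the 31 genes the interval stayed inside a 2-fold change in either direction, and for the other 13 it reached 2-fold, so that a change of that size was not excluded for them. UGT71B1, UGT71C1, UGT72B3, UGT76E11 and UGT87A2 were the 5 genes whose log2 fold change moved by less than 1.5 times whichever array was left out. In the other 26 the fold change moved by more for at least 1 array. This rule depends on the size of the change, since a small shift fails a gene near 0. UGT74B1, at 0.07, failed with 0.0025 to 0.17, while UGT71B1, at 0.70, passed with 0.53 to 0.88. For UGT73D1 only 3 of the 6 fits could be run.

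**Figure D1:**
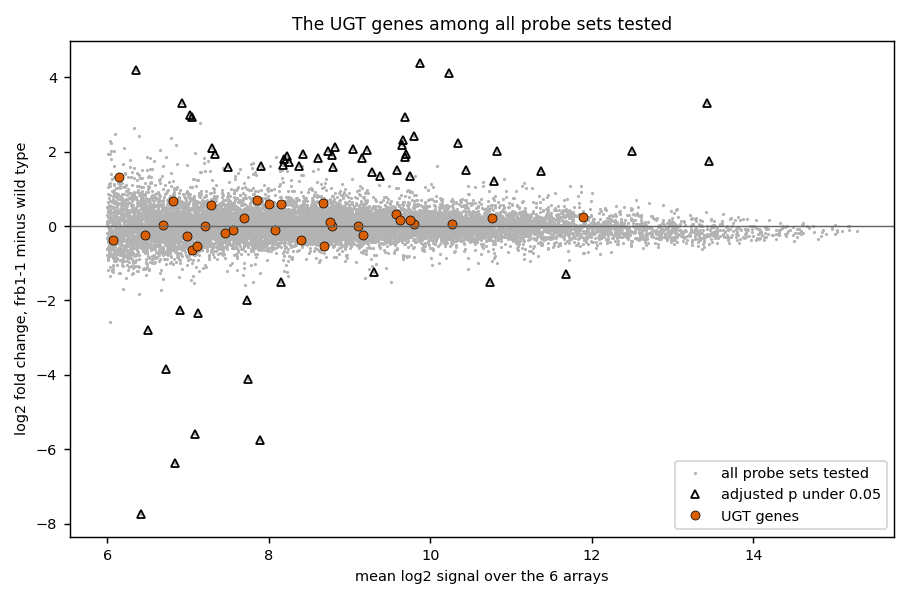
Log2 fold change (frb1-1 minus wild type) against the mean log2 signal over the 6 arrays, for all 15218 probe sets tested (grey), those with an adjusted p under 0.05 (triangles) and the 31 UGT genes (orange). The UGT genes lie between -0.64 and 1.32 and none is among the 56 called probe sets.

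For 5 UGT genes, 16.1% of the 31, frb1-1 and wild-type arrays formed separate ranges, beside 10.9% of all probe sets. UGT71B1, UGT87A2 and UGT84A3 were above wild type on every frb1-1 array (6.26% of all probe sets), and UGT71C1 and UGT72B3 were below it (4.65%). UGT71B1 (AT3G21750) gave signals of 312, 301 and 275 in frb1-1 and of 235, 179 and 145 in wild type. The means were 296 ± 19.2 in frb1-1 and 186 ± 45.4 in wild type (SD, n = 3 each), and the log2 fold change was 0.70 with a standard error of 0.26 (limma adjusted p = 0.676). Its 95% interval was 0.13 to 1.27.

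UGT87A2 (AT2G30140), which is known for an influence on flowering time, gave signals of 410.1, 300.1 and 349.5 in frb1-1 and of 205, 252 and 241 in wild type. The lowest frb1-1 array stood above the highest wild-type array by less than the spread among the frb1-1 arrays. The log2 fold change was 0.60 with a standard error of 0.24 and an interval of 0.08 to 1.12 (limma adjusted p = 0.739). UGT84A3 (AT4G15490), which forms glucose esters of hydroxycinnamates, gave 146, 149 and 132 in frb1-1 and 116, 64.6 and 95.2 in wild type. The frb1-1 arrays lay close together, and the wild-type arrays were spread over a wider range below them. The log2 fold change of UGT84A3 was 0.67, with an interval of -0.11 to 1.45 that takes in 0 (limma adjusted p = 0.970).

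The signals of UGT72B3 (AT1G01420), a relative of the xenobiotic-conjugating UGT72B1, were 110.2, 117 and 91.2 in frb1-1 and 182, 177 and 139.8 in wild type. Its log2 fold change of -0.64 was the lowest of the 31 genes, with an interval of -1.32 to 0.04 (limma adjusted p = 0.889). UGT71C1 (AT2G29750) gave 289.6, 308 and 298 in frb1-1 and 364, 410.1 and 380.3 in wild type. Both genotypes were tight for this gene, with means of 299 ± 9.13 in frb1-1 and 385 ± 23.3 in wild type (SD, n = 3 each). The log2 fold change was -0.36, with an interval of -0.83 to 0.10 (limma adjusted p = 0.996).

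**Figure D2:**
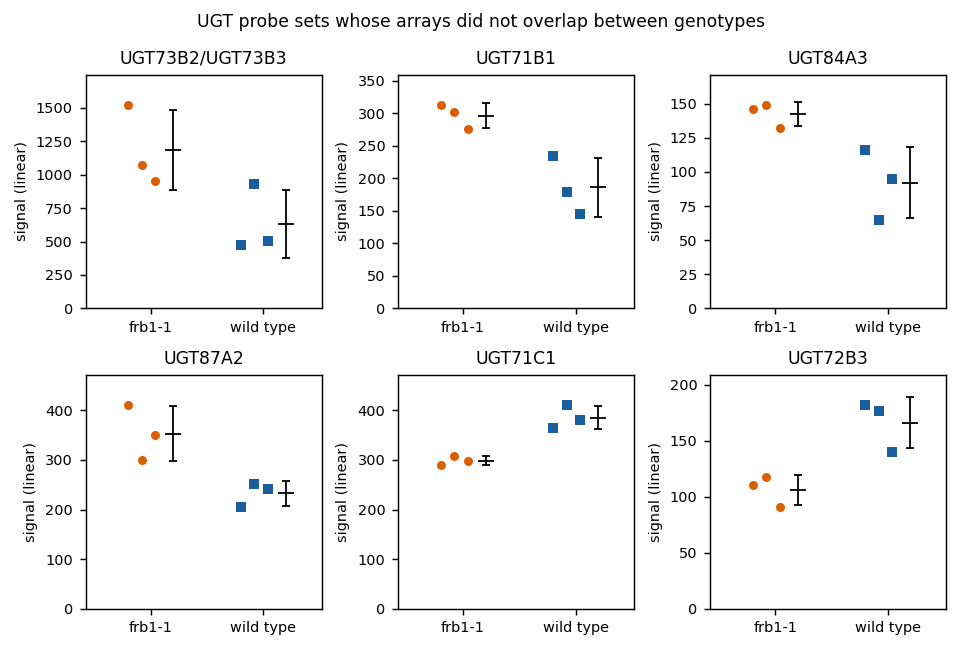
Linear MAS 5.0 signals of the 5 UGT genes above the filter whose frb1-1 arrays (orange circles) and wild-type arrays (blue squares) did not overlap, and of the probe set shared by UGT73B2 and UGT73B3, with the mean and SD of 3 arrays beside the points. UGT73B2/UGT73B3 has the highest ratio of means shown, 1.87, and the frb1-1 signals of UGT71C1 and UGT72B3 lie below those of wild type.

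By family group, UGT71 had 6 of 9 genes above the filter, with a median log2 fold change of 0.17, which ran from -0.06 to 0.33 over the alternatives tried. The group held both directions: 4 genes were positive and 2 negative, and its subgroup UGT71C spanned 1.32 for UGT71C3 to -0.36 for UGT71C1. UGT71C3 (AT1G07260) gave 151, 92.3 and 101 in frb1-1 and 108, 8.01 and 105 in wild type. The highest log2 fold change of the 31 genes thus rests on 1 dim wild-type array: it was 0.07 without wild-type replicate 2. The ratio of mean signals of UGT71C3 was 1.56, and its interval of -0.57 to 3.20 was the widest of the 31 genes. UGT71C4 (AT1G07250) gave 879, 1184 and 599.6 in frb1-1 and 838, 635 and 585 in wild type, a log2 fold change of 0.33 with overlapping arrays. UGT71C5, which forms the glucose ester of abscisic acid, differed by 0.01 (interval -0.47 to 0.49), and UGT71C2 by -0.0060 (interval -0.68 to 0.67).

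In UGT76 the filter kept 6 of 8 genes, with a median of 0.07 (-0.03 to 0.33 over the alternatives), and frb1-1 and wild-type arrays overlapped for each of them. UGT76C1 (AT5G05870), one of a pair of enzymes that inactivate cytokinins by N-glucosylation, had the highest log2 fold change of this group, 0.60. Its signals were 309, 372 and 278 in frb1-1 and 112, 361 and 225 in wild type, so that wild-type replicate 2 lay among the frb1-1 arrays. The difference was 0.16 without wild-type replicate 1 and 0.998 without wild-type replicate 2. Its partner UGT76C2 gave 387, 413 and 560.2 in frb1-1 and 384, 634 and 299.6 in wild type, a log2 fold change of 0.10. UGT76E11 (AT3G46670) gave 164, 196 and 212 in frb1-1 and 175, 118 and 101 in wild type, and only wild-type replicate 1 reached into the frb1-1 range. Its log2 fold change was 0.56, with an interval of -0.12 to 1.25 (limma adjusted p = 0.996). UGT76D1 was the lowest of the group at -0.23, with frb1-1 signals of 55.3, 68.0 and 146 and wild-type signals of 89.6, 85.1 and 116.

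UGT73, a group with several pathogen- and stress-responsive members, had 3 of 7 genes above the filter. The median log2 fold change of these genes was -0.37, and it ran from -0.71 to 0.29 over the alternatives. UGT73B1 (AT4G34138) was the highest at 0.62, with signals of 770.2, 622 and 272 in frb1-1 and of 328, 483 and 229 in wild type. The range within each genotype exceeded the difference between the means, which were 555 ± 256 in frb1-1 and 346 ± 128 in wild type (SD, n = 3 each). UGT73B5 (AT2G15480), a pathogen-responsive gene, had the opposite sign, with 127, 142 and 84.1 in frb1-1 and 159, 223 and 127 in wild type, a log2 fold change of -0.52. The interval of UGT73B5 was -1.28 to 0.24 and its arrays overlapped. UGT73D1 differed by -0.37, with an interval of -1.84 to 1.11.

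A further UGT73 probe set stood outside the rule because the annotation gives it to both UGT73B2 and UGT73B3, genes whose transcripts it cannot tell apart. Its signals were 1519.7, 1074 and 952 in frb1-1 and 472, 927 and 501 in wild type. The frb1-1 arrays were all above the wild-type arrays, as for 6.26% of all probe sets tested. Means were 1182 ± 299 in frb1-1 and 633 ± 255 in wild type (SD, n = 3 each). The log2 fold change of UGT73B2/UGT73B3 was 0.94 with a standard error of 0.29 and an interval of 0.30 to 1.58 (limma adjusted p = 0.448, unadjusted p = 0.00779). Its unadjusted p was under that of every one of the 31 genes, but it did not pass the threshold. The probe set shared by UGT89B1 and AT1G73885 gave 649, 674 and 727 in frb1-1 and 542, 511 and 635 in wild type. Its log2 fold change was 0.28, and its frb1-1 arrays were also all above wild type (6.26% of all probe sets tested). That shared by UGT71D1 and AT2G29710 differed by 0.22 with overlapping arrays.

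In the smaller groups, UGT72 had a median of -0.24 over 3 genes, UGT84 of -0.11 and UGT85 of 0.16. Over the alternatives these medians ran from -0.33 to -0.09 in UGT72, from -0.19 to 0.09 in UGT84 and from -0.06 to 0.30 in UGT85. UGT85 ranged from -0.19 for UGT85A4 to 0.21 for UGT85A5. UGT88A1 (AT3G16520), the only gene of its group, gave 3709.5, 3419.7 and 5539 in frb1-1 and 3322, 3126 and 4023 in wild type. Its log2 fold change was 0.25, with an interval of -0.24 to 0.74, and 0.038 without frb1-1 replicate 3. UGT85A2 (AT1G22360) gave 1134, 802 and 633 in frb1-1 and 777, 921 and 578 in wild type, a log2 fold change of 0.16.

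**Figure D3:**
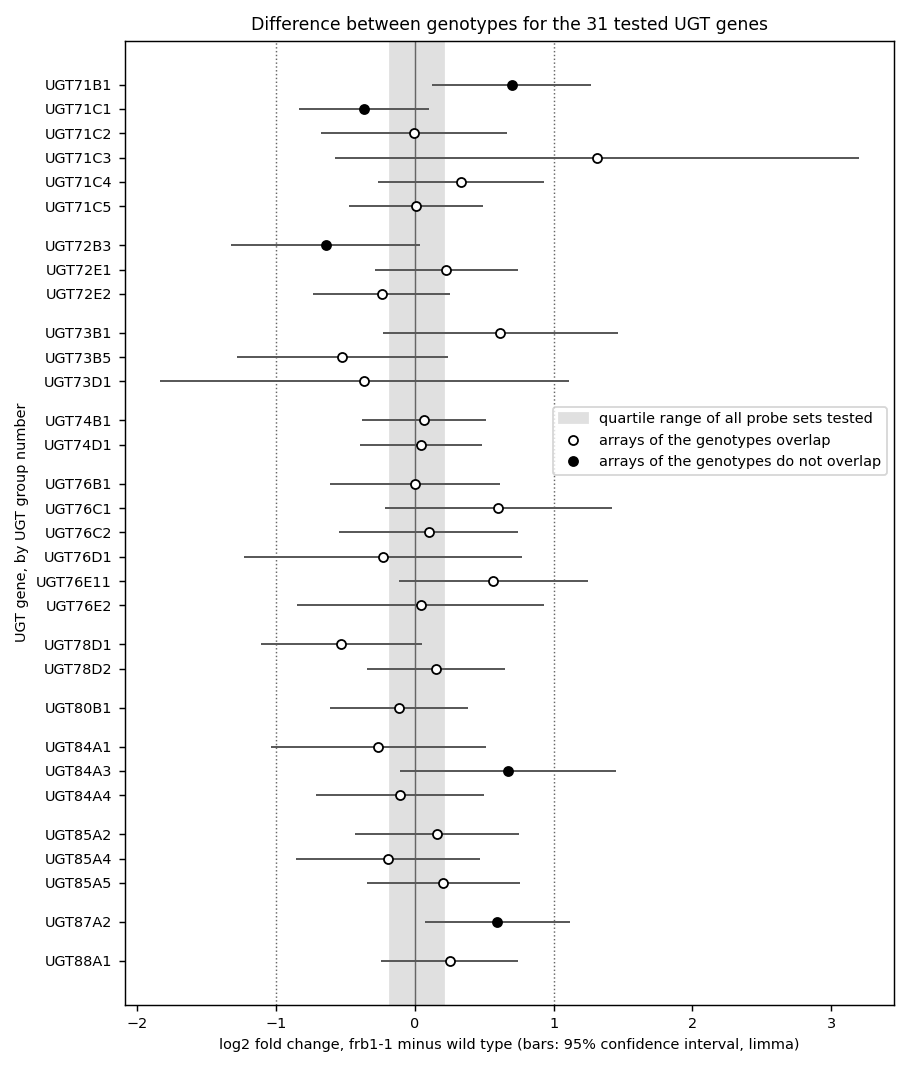
Log2 fold change (frb1-1 minus wild type) of the 31 UGT genes that passed the filter, by family group, with 95% confidence intervals from limma. Filled points mark the 5 genes whose arrays did not overlap between genotypes, dotted lines mark a 2-fold change and the grey band the range between the quartiles of all probe sets; the intervals of UGT71B1 and UGT87A2 do not cross 0.

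Grouped by acceptor, the genes that act on hormones were 4 above the filter of 7 members, all with a positive and mostly small difference, although the sign of UGT71C5 turned under quantile and median scaling and those of UGT74D1 and UGT76C2 with array weights. The log2 fold changes were 0.60 for UGT76C1, 0.10 for UGT76C2, 0.05 for the auxin-conjugating UGT74D1 and 0.01 for UGT71C5, with a median of 0.07. UGT74D1 (AT2G31750) gave 1089.6, 1372 and 1328 in frb1-1 and 1302, 1219 and 1137 in wild type. Its interval was narrow, -0.39 to 0.49, and so leaves room for neither a 2-fold rise nor a 2-fold fall. The 3 hormone genes under the filter were UGT71B6, UGT73C1 and UGT84B1, which act on abscisic acid, cytokinins and auxin.

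The genes of phenylpropanoid and monolignol conjugation, whose products include the glucosides of lignin precursors, were 5 above the filter of 6 members, 2 positive and 3 negative, with a median of -0.11. UGT72E1 (AT3G50740), which acts on monolignol aldehydes, gave 1583, 1734 and 2424 in frb1-1 and 1276, 1812 and 1794 in wild type, a log2 fold change of 0.23 that was 0.044 without frb1-1 replicate 3 and 0.061 without wild-type replicate 1. UGT72E2, which glucosylates monolignols, gave 586, 590.1 and 429 in frb1-1 and 685, 645 and 552 in wild type, a log2 fold change of -0.24. In both cases the arrays overlapped. Of the hydroxycinnamate ester-forming genes, UGT84A3 was at 0.67 while UGT84A1 was at -0.26 and UGT84A4 at -0.11.

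The flavonoid genes split as well. UGT78D1 (AT1G30530), the flavonol rhamnosyltransferase, gave 325, 384 and 325 in frb1-1 and 697, 474 and 368 in wild type. The highest frb1-1 array lay just above the lowest wild-type array, and the log2 fold change was -0.53 with an interval of -1.11 to 0.05 (limma adjusted p = 0.932). UGT78D2 (AT5G17050), the flavonoid glucosyltransferase of the same group, gave 1013, 842 and 882 in frb1-1 and 845, 647 and 1004 in wild type, a log2 fold change of 0.15. UGT78D3, the flavonol arabinosyltransferase, was under the filter, with 3.29, 8.15 and 7.78 in frb1-1 and 33.4, 11.1 and 22.2 in wild type. These are low signals in both genotypes, and no fold change is given for them.

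Of the remaining acceptor classes, UGT74B1 (AT1G24100), which glucosylates thiohydroximates on the way to glucosinolates, gave 881, 970.0 and 876 in frb1-1 and 992, 790.5 and 827 in wild type. Its log2 fold change was 0.07, with an interval of -0.38 to 0.51. The sterol glucosyltransferase UGT80B1 differed by -0.11 (interval -0.61 to 0.39). Of the genes for defence compounds, UGT76B1, which acts on isoleucic and salicylic acid, had means of 553 ± 60.6 in frb1-1 and 577 ± 208 in wild type (SD, n = 3 each). The log2 fold change of UGT76B1 was 0.00081, with an interval of -0.61 to 0.61. UGT73B5 is described above. UGT74F1, a salicylic acid glucosyltransferase, was under the filter.

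**Figure D4:**
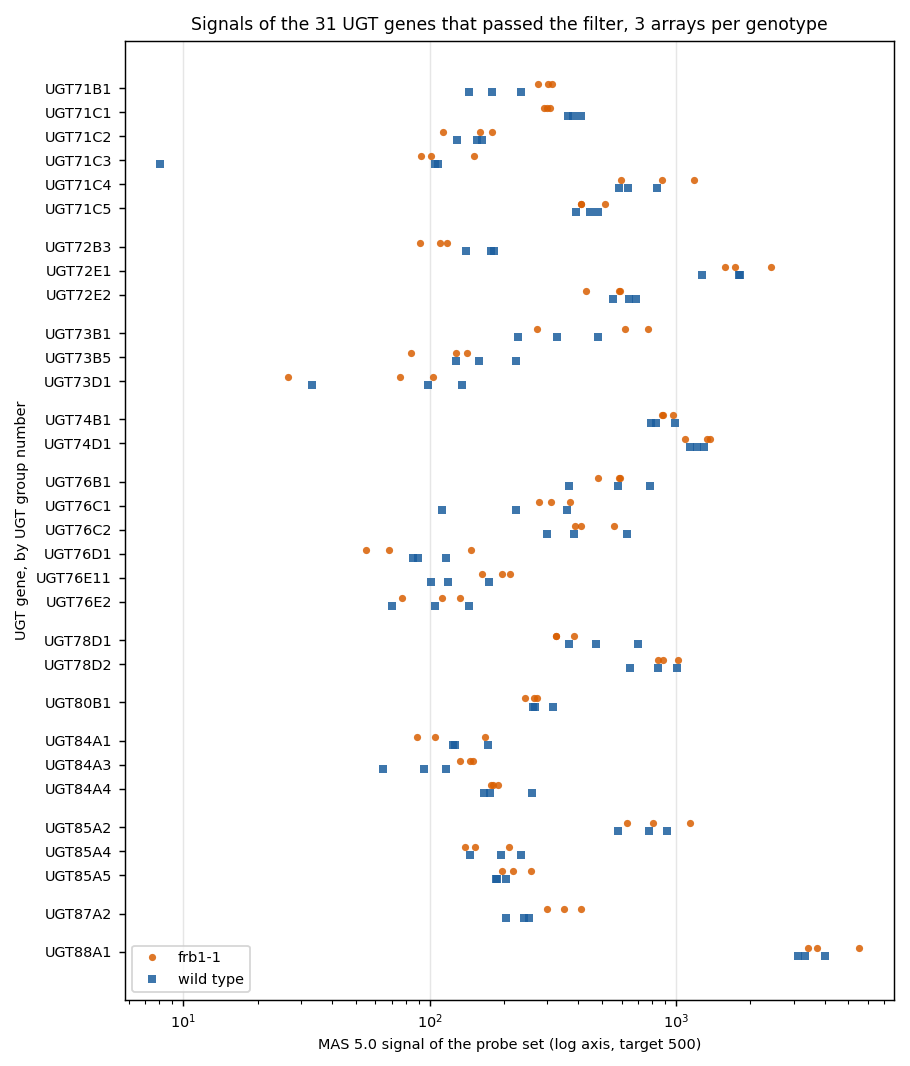
MAS 5.0 signal (log axis) of each of the 31 UGT genes that passed the filter on the 3 frb1-1 arrays (orange circles) and the 3 wild-type arrays (blue squares), by family group. The genotypes overlap for 26 genes, and the wild-type array at 8.01 is the one that sets the fold change of UGT71C3.

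The 16 genes under the filter had mean signals of 5.35 to 75.3 in frb1-1 and of 5.57 to 78.0 in wild type. UGT78D3 was the only one of the 16 with separate ranges in frb1-1 and wild type. The 10.9% given above covers probe sets that passed the filter, so no share for dim probe sets stands beside this count. Among the 31 genes that passed, UGT71C3, UGT73D1 and UGT76D1 had at least 1 array under a signal of 64.

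Many UGT genes lie in tandem. In the gene order of the TAIR10.1 assembly, 30 of the 47 genes stood in 13 runs of neighbours with at most 1 other protein-coding gene between them. In 5 of these runs 2 or more genes passed the filter, and in 4 of the 5 their log2 fold changes had the same sign. Each of these 4 runs held a gene whose sign turned under an alternative. These were UGT71C2 and UGT71C5 under quantile normalization, UGT76C2 with array weights and UGT85A2 without frb1-1 replicate 1. Whether neighbours share a direction more often than other genes was not tested. The exception was on chromosome 4, where UGT84A1, UGT84A3 and UGT84A4 follow each other with log2 fold changes of -0.26, 0.67 and -0.11. On chromosome 2, UGT71C2 at -0.0060 stands next to UGT71C1 at -0.36, and on chromosome 1 UGT71C5, UGT71C4 and UGT71C3 were at 0.01, 0.33 and 1.32. On chromosome 5, the cytokinin genes UGT76C2 and UGT76C1 were at 0.10 and 0.60.

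The annotation covered little of the pathways that supply UGTs. Of 23 listed genes of UDP-sugar supply it names USP alone, the UDP-sugar pyrophosphorylase, with 999, 697 and 694 in frb1-1 and 667, 677 and 637 in wild type, with no overlap of the arrays. The log2 fold change of USP was 0.25 (interval -0.24 to 0.74). Of 9 flavonoid pathway genes 3 were named: DFR, dihydroflavonol reductase, was at 0.35, CHIL, a chalcone isomerase-like protein, at -0.07, and ANR was under the filter. Of 15 phenylpropanoid genes HCT was named, a hydroxycinnamoyltransferase of lignin precursor synthesis. It gave 3055, 3459 and 2656 in frb1-1 and 3686, 3543 and 4339 in wild type. HCT differed by -0.34, also with no overlap (10.9% of all probe sets; limma adjusted p = 0.996). Of 12 glucosinolate genes CYP79A2 was named and was under the filter. Of the 59 genes on these 4 lists 6 were named and 4 tested, and none of the 4 was called, beside 0.368% of all probe sets.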

How the data were processed

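RNA of whole 10-day-old seedlings was hybridised to ATH1 arrays. The deposited signal intensities are MAS 5.0 values that the authors scaled to a target of 500, with 22810 probe sets on each of 6 arrays. The annotation gave 13513 probe sets 1 gene, 503 several and 8730 no name; its symbols were set against RefSeq (TAIR10.1), and no coordinates are given because no build was named.

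After 64 control probe sets were left out, log2 signals with a mean of at least 6 were tested with limma 3.58.1 in R 4.3.3 (lmFit and eBayes with a trend, Benjamini-Hochberg adjustment, threshold 0.05). The replicates are labelled biological. In data simulated for this comparison with 15218 probe sets, 25.4% of log2 changes of 1, 74.6% of changes of 2 and 93.9% of changes of 3 were recovered. The simulated arrays were independent, had the observed spread of each probe set and held more changed probe sets than were called here. These shares need not hold for the real arrays. An exact permutation test of 3 against 3 arrays cannot go below p = 0.1 and was not used. The number of arrays limits the precision.

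The members and gene lists were chosen with earlier results of these data known. Values are given for UGT genes with the 12 smallest p-values, the 6 highest mean signals, a known acceptor, or the extreme fold changes of a family group, and for the 2 smallest p-values of other lists. Probe sets shared with another gene, the dim gene UGT78D3, UGT71C2 and UGT73D1 were added after their values were seen. Scaling, filters, a pseudocount, the variance model, array weights, a replicate block, the probe set per gene and the choice of members were varied, and each array was left out in turn. Each UGT gene had a single probe set, so averaging over probe sets could not change its signals.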

Additional observations from a re-analysis of the deposited data

How the results depend on the processing

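No UGT gene was called under any of the 16 alternatives run, and the lowest adjusted p that any of them gave was 0.377, for UGT71B1 with a replicate block. Deviations of same-numbered arrays from the means of their genotypes correlated at 0.041, 0.28 and 0.32 for replicates 1, 2 and 3. Such deviations cancel out within a genotype, so each array has a positive best match whether or not arrays were paired. The correlations therefore cannot decide if the replicate numbers pair the arrays. Replicates 2 and 3 of frb1-1 correlated best with the wild-type array of the same number. For frb1-1 replicate 1 the best match was wild-type replicate 2, at 0.11. Whether same-numbered arrays were handled together was not tested. The 56 probe sets called over the whole array became 138 with the replicate block, 28 without the variance trend and 122 with array weights, and 17 to 80 when 1 array was left out. Without a filter, 5 UGT genes were at least 2-fold, UGT73C1, UGT73C2, UGT76E12, UGT78D3 and UGT84B2, all of them dim. The 1.66% given above for all probe sets covers only those that passed the filter, so it is not a share to set beside this count. With 1 array left out, the count of UGT genes at least 2-fold was 0 to 1. UGT73B1 reached a ratio of 2.01 without frb1-1 replicate 3, and UGT71C3 one of 2.02 without wild-type replicate 1. The UGT73B2/UGT73B3 probe set had adjusted p-values of 0.154 to 0.999 over the alternatives.

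Of the 31 genes, 25 could be fitted under all 16 alternatives, since stricter filters or a missing array left out the dimmest. The sign held in each fit run for 20 genes and turned in at least 1 for 11, none of them called. The filters, the replicate block, the variance trend and the mean over probe sets leave a gene's fold change as it was. A sign could thus turn only under the other alternatives. Quantile normalization gave 0.0040 for UGT71C2, -0.028 for UGT71C5 and -0.027 for UGT76B1, and median scaling -0.018 for UGT71C5 and -0.026 for UGT76B1. A pseudocount of 32 gave -0.0027 for UGT76B1. Array weights gave -0.0015 for UGT74D1, -0.067 for UGT76B1 and -0.14 for UGT76C2. With 1 array left out, log2 fold changes ran from -0.14 to 0.18 for UGT71C2, -0.10 to 0.078 for UGT71C5, -0.96 to 0.21 for UGT73D1, -0.017 to 0.15 for UGT74D1, -0.29 to 0.25 for UGT76B1, -0.14 to 0.40 for UGT76C2, -0.65 to 0.054 for UGT76D1, -0.23 to 0.29 for UGT76E2, -0.018 to 0.30 for UGT78D2, -0.23 to 0.093 for UGT84A4 and -0.065 to 0.36 for UGT85A2. The cause of these changes was not tested.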

Other observations

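Besides the 47 genes, 4 genes carry a UGT name only among their RefSeq synonyms and so were outside the rule. UGT79B1, an anthocyanin xylosyltransferase, gave 211, 259 and 387 in frb1-1 and 266, 117 and 169 in wild type, a log2 fold change of 0.67 with an interval of -0.09 to 1.43 (limma adjusted p = 0.954). UGT72B1, which conjugates chlorinated phenols and anilines, gave 1009, 1062 and 1351 in frb1-1 and 1147, 1252 and 1162 in wild type, a log2 fold change of -0.07 (-0.20 to 0.014 with 1 array left out). The sterol glucosyltransferase UGT80A2 differed by 0.12 (interval -0.55 to 0.79), or by -0.14 without frb1-1 replicate 1 and 0.45 without frb1-1 replicate 3, and UGT79B6 was under the filter.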
